A study of Mus musculus with 5 samples.

Results

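Gene expression in peritoneal macrophages of mice given poly IC together with ethanol was compared with that of untreated (naive) mice. Members were chosen by array title: the 2 arrays of poly IC plus ethanol (groups 1 and 2) and the single naive array, 3 of the 5 arrays of the series, with all 12422 probe sets other than the array maker's controls, of 12488 in all. Each array was an Affymetrix Murine Genome U74Av2 chip, which carries short oligonucleotide probe sets for mouse transcripts and gives 1 signal per probe set. The mice given both agents were female C57Bl/6 x C3H F1 animals, 12 weeks old, that received 0.1 mg of poly IC per mouse and ethanol at 6 g per kg in an acute oral dose. The other 2 arrays of the series came from mice of the same cross, sex and age given poly IC without ethanol (0.1 mg per mouse, a dose stated for the second of these groups only). They entered the estimate of the spread and the tests against poly IC alone, and not the contrast with naive. No array of mice given ethanol alone was analysed here, so a change from naive cannot be divided between poly IC and ethanol. Each treated sample was a pool of mice, so n = 2 counts pools and the p-values measure the spread between pools. The naive label gives no sex, age, cross or pooling, and a difference in any of these cannot be told apart from the treatment.

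Poly IC (polyinosinic polycytidylic acid) is a synthetic double-stranded RNA. Cells detect it in the way they detect viral RNA, through Toll-like receptor 3 in endosomes and the helicase sensors RIG-I and MDA5 in the cytosol. The sensors switch on interferon regulatory factors and NF-kB. The first leads to type I interferon, which acts back on cells through JAK kinases and STAT factors to raise antiviral genes, and the second leads to cytokines, chemokines and its own inhibitors. Peritoneal macrophages are resident phagocytes of the body cavity that depend on the transcription factor Gata6. A large acute dose of ethanol reaches every tissue and is known as a stressor that raises circulating glucocorticoid hormone.

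The defining markers of the labelled cell type were present on every array. Lyz2 (lysozyme) gave a signal of 76774 in naive macrophages and 77383 and 77488 after poly IC plus ethanol. Adgre1, which encodes the F4/80 antigen, gave 24872 in naive macrophages and 28109 and 19410 after the treatment. Among defining markers of other cells, Ighm (immunoglobulin heavy chain mu, of B cells) gave 117527 in naive macrophages and 89108 and 102427 after poly IC plus ethanol, so the samples held B cell RNA too. Median signals were alike, at 836 for naive and 798 and 902 after poly IC plus ethanol. Log2 signals of the poly IC plus ethanol pair correlated at r = 0.969 across probe sets, and those of the naive array with either of them at 0.933 and 0.922. Probe sets are not independent replicates, and these r are descriptions. The signal of an 18S ribosomal RNA control, at 7277 in naive macrophages, stood at 8225 and 19415 on the poly IC plus ethanol arrays and at 5113 and 66548 on the poly IC arrays. The second poly IC array stands apart in this control, and it enters the spread and every test against poly IC. The part of this control's difference in the results was not tested.

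Relative to naive, 739 of 12422 probe sets (5.95%) passed an adjusted p of 0.05 (limma with Benjamini-Hochberg adjustment over all probe sets), 436 of them higher (3.51%) and 303 lower (2.44%). On both poly IC plus ethanol arrays all 739 lay on the same side of the naive signal. They were called on the mean of these same arrays, so this is not a replication. The rises were larger than the falls on the scale of log2(signal + 250), which understates the change of dim genes. The median of the called rises was 1.58 and that of the called falls was -1.17. On this scale 62 rises but 2 falls exceeded 3 log2 units. The naive signal limits how far a gene can fall, so a gene dim on the naive array cannot fall by 3 units. A rise has no such limit, so the 2 counts are not on equal terms. The median difference over all probe sets was 0.00. With 1 probe set kept for each gene of a single symbol, that with the highest mean signal, 586 of 8251 genes were called (7.1%), 356 higher (4.31%) and 230 lower (2.79%). The counts below are of these genes and are to be read against those shares. Where the lower group's mean was under the highest signal of 19 control probe sets whose targets were not spiked in (301.9 for naive, 443.8 for poly IC plus ethanol), the fold is a lower bound, the higher mean over that control's signal. Without the intensity trend in limma's variance estimate 259 probe sets were called, 198 higher and 61 lower. With any 1 of the 4 treated arrays left out the fit called 481 to 523 in all, with 345 to 351 higher and 130 to 174 lower. In bulk RNA a fall can reflect fewer cells of a type or less RNA per cell, and these cannot be told apart.

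**Figure D1:**
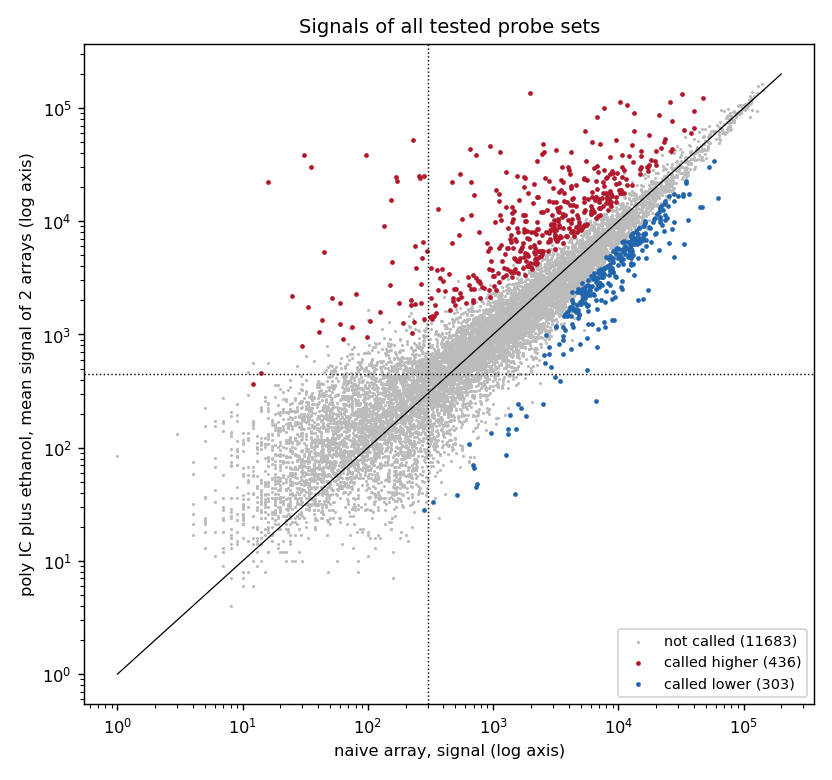
Signal of each of the 12422 tested probe sets on the naive array (x axis, log scale) and its mean over the 2 poly IC plus ethanol arrays (y axis, log scale, signals under 1 drawn at 1). Red points are the 436 called higher, blue points the 303 called lower and grey points those not called, the dotted lines mark the brightest unspiked control of each group, and the diagonal marks equal signals. Many of the largest rises start to the left of the dotted line at 301.9, where the naive signal is no higher than that of a control.

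Antiviral genes that interferon stimulates rose broadly. Of 34 measured members of that list, 26 rose and none fell, beside 4.31% of all genes higher, and the median difference was 1.86 beside -0.02 over all genes. The count was 26 in each fit that left out 1 treated array, and 18 without the intensity trend. Ifit1, which binds viral RNA that lacks a self cap, was 31 in naive macrophages and 37018 and 40215 after poly IC plus ethanol. Rsad2, the gene of the antiviral enzyme viperin, was 279 in naive macrophages and 26758 and 23527 after the treatment. Both poly IC plus ethanol arrays lay far above naive for both genes, which were chosen by this difference. Ifit1 was at least 128-fold higher (log2 difference 7.11, SE 0.14, adjusted p = 5.29e-06), and Rsad2 at least 83.3-fold (5.58, SE 0.14, adjusted p = 5.29e-06). Isg15, a ubiquitin-like modifier attached to proteins, went from 1140 to 43038 and 38441, a log2 difference of 4.88 (SE 0.19, adjusted p = 3.11e-05). Mx1 and Mx2, dynamin-like GTPases that block viral replication, went from 735 and 547 to means of 38616 ± 3734 and 26044 ± 1747 (SD, n = 2), which is 52.5-fold and 47.6-fold. Ifit2 and Ifit3, relatives of Ifit1, were at least 51.5-fold and at least 79.3-fold higher. Cmpk2, a mitochondrial nucleotide kinase gene next to Rsad2, was 360 in naive macrophages and 14213 and 11353 after the treatment (4.41, SE 0.18, adjusted p = 3.49e-05), while its other, dimmer probe set was not called (1.48, adjusted p = 0.0803). The 8 members that were not called included 3 membrane proteins of the Ifitm family, Ifitm1, Ifitm2 and Ifitm3, at differences of 0.96, 1.01 and 0.48, named after their values were seen.

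The promoters of 4 of these genes are shown because each holds GAAA, any 2 bases and GAAA again, the core that interferon-activated factors bind (the interferon-stimulated response element, ISRE), in capitals here on whichever strand they lie. Each line gives the 200 bases before the start site in RefSeq on GRCm38.p6, read 5′ to 3′ on the strand of the gene.
Ifit1, chr19:34640689-34640888, plus strand: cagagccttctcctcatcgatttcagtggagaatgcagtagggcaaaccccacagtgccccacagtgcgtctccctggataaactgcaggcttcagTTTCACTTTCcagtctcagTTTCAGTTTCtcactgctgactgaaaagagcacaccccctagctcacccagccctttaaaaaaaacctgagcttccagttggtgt
Ifit3, chr19:34583329-34583528, plus strand: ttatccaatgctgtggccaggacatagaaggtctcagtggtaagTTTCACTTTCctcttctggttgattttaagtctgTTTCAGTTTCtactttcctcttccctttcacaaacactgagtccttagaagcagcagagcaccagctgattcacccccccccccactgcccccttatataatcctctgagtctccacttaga
Rsad2, chr12:26456453-26456652, minus strand: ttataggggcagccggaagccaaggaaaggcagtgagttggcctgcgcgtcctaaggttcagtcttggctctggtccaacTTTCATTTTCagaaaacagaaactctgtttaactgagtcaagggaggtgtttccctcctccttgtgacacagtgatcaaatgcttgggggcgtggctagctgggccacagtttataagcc
Isg15, chr4:156200819-156201018, minus strand: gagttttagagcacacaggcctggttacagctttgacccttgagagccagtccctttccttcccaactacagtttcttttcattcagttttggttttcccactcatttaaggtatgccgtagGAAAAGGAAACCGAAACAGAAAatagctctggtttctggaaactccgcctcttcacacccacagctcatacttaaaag
In Ifit1 the 2 matches begin 104 and 85 bases before the start, in Ifit3 they begin 156 and 122 bases before it, and in Rsad2 the only match begins 120 bases before it. Isg15 holds 3 overlapping matches that begin 78, 72 and 66 bases before the start. Of 30 promoter windows of 300 bases (250 before to 50 after the start) for 21 matched genes of the 26, 10 held the core on either strand, 33.3% beside 3.44% of all 32851 windows of the table. A match is a run of letters and does not show that a factor binds.

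The interferon-inducible GTPases of the IRG and GBP families, which attack the vacuoles of intracellular pathogens, all rose. Each of the 8 measured members was called higher, with a median difference of 2.73, and 6 of 8 promoter windows for 7 matched genes held the ISRE core (75%). Iigp1 went from 1114 on the naive array to 19265 and 15468, a 15.6-fold difference (3.68, SE 0.21, adjusted p = 0.000164). Ifi47 went from 3544 to 31751 and 29003 (3.01, SE 0.13, adjusted p = 3.96e-05). Igtp, Irgm1 and Irgm2 rose by 2.61, 3.01 and 2.85 log2 units. Both treated arrays were above naive for each of these genes, as for every gene called higher. Tap1, which pumps peptides into the endoplasmic reticulum for MHC class I, rose from 7574 to 21970 and 22820 (1.53, SE 0.13, adjusted p = 0.000864). It was the only 1 of 14 class I peptide supply genes that was called, although 11 of the 14 differences were above 0. A second, dimmer probe set of Tap1 was not called (1.77, adjusted p = 0.115).

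Regulators of interferon signalling moved in both directions. Of 27 measured interferon regulatory factor, JAK, STAT and SOCS genes, 10 rose and 2 fell, and the median was 0.46. Without the intensity trend 4 rose and 1 fell. SOCS genes encode inhibitors of JAK signalling. Socs1 went from 1565 to 24175 and 26258, 16.1-fold (3.81, SE 0.14, adjusted p = 2.88e-05), and Socs3 from 10282 to 113911 and 111070, 10.9-fold (3.42, SE 0.13, adjusted p = 2.89e-05). Irf7, a factor that amplifies interferon production, rose from 1413 to 9247 and 10304 (2.59, SE 0.24, adjusted p = 0.00152). Irf1 rose from 7660 to 29028 and 27507 (1.85, SE 0.12, adjusted p = 0.000271). Irf4 fell from 12524 to 3846 and 4459 (-1.54, SE 0.17, adjusted p = 0.00314) and was named after its value was seen. Ifnb1, the interferon-beta gene, was 133 in naive macrophages and 700 and 471 after poly IC plus ethanol and was not called (1.11, SE 0.66, adjusted p = 0.436).

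Inflammatory cytokines rose in the same comparison. Of 24 measured members of the cytokine and interleukin-1 family list, 12 rose and 1 fell, with a median of 1.36. Il6, the gene of the fever and acute-phase cytokine interleukin-6, was 255 in naive macrophages and 24745 and 25951 after the treatment. Il1a (interleukin-1 alpha) was 656 in naive macrophages and 45194 and 41782 after the treatment. Tnfsf9, the ligand of the co-stimulatory receptor 4-1BB, was 172 in naive macrophages and 23286 and 21926 after the treatment. In all 3, which were chosen by this difference, the poly IC plus ethanol arrays were close together and far above naive. Il6 was at least 84.0-fold higher (5.66, SE 0.16, adjusted p = 5.79e-06), Il1a 66.3-fold (5.59, SE 0.14, adjusted p = 5.29e-06) and Tnfsf9 at least 74.9-fold (5.76, SE 0.15, adjusted p = 5.29e-06). Il1b, at 708 in naive macrophages, varied more between pools, at 20407 and 13655 (4.14, SE 0.26, adjusted p = 0.00024). Il1rn, the secreted antagonist of interleukin-1, went from 469 to 23939 and 20300, 47.2-fold. Tnf rose from 467 to 5720 and 7256, 13.9-fold (3.22, SE 0.19, adjusted p = 0.000197). Il10, which restrains macrophage activation, rose from 33 to 1948 and 1550, at least 5.79-fold (2.81, SE 0.31, adjusted p = 0.00296). Ltb (lymphotoxin beta), made mainly by lymphocytes, was the member that fell, from 33167 to 6547 and 5984 (-2.36, SE 0.15, adjusted p = 0.000251).

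Chemokines, which recruit leukocytes, rose as well. Of 22 measured, 11 rose and none fell, and the median was 1.37. Ccl4 went from 96 on the naive array to 42536 and 34150, at least 127-fold higher (6.79, SE 0.17, adjusted p = 5.29e-06). Cxcl10, an interferon-inducible chemokine for T cells, went from 35 to 37146 and 23591, at least 101-fold (6.71, SE 0.26, adjusted p = 3.11e-05). Its 2 poly IC plus ethanol arrays stood further apart than those of Ccl4, but both were far above naive. Ccl4 and Cxcl10 were chosen by this difference. Ccl7 was at least 82.3-fold higher, and Ccl2 and Ccl5, which attract monocytes and T cells, were 16.0-fold and 19.2-fold higher. Cxcl9, also interferon-inducible, rose from 41 to 1168 and 926 (2.15, SE 0.28, adjusted p = 0.00598), and this call was lost when the fit used only the naive and poly IC plus ethanol arrays.

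Receptors for chemokines moved in both directions. Of 13 measured, 3 rose and 3 fell, and without poly IC plus ethanol group 2 only 1 fell. Ccrl2, a receptor-like presenter of chemerin, rose from 1793 to 11808 and 11102 (2.52, SE 0.16, adjusted p = 0.00023), and Ccr6 from 3451 to 12812 and 14163 (1.89, SE 0.14, adjusted p = 0.00052). Ccr7, which guides cells to lymph nodes, fell from 3646 to 624 and 735 (-2.07, SE 0.31, adjusted p = 0.0112). Ccr2, the monocyte receptor for Ccl2, was 17139 in naive macrophages and 2996 and 1899 after the treatment (-2.72, SE 0.41, adjusted p = 0.012). Its call was lost without poly IC plus ethanol group 2 (-2.42, adjusted p = 0.0645) and without the intensity trend (adjusted p = 0.0783).

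Most genes of the NF-kB list rose. Of 18 measured members 13 rose and none fell, with a median of 1.39. Tnfaip3, the gene of the ubiquitin-editing inhibitor A20, went from 943 to 49976 and 42527, a 49.0-fold difference (5.28, SE 0.14, adjusted p = 5.53e-06). Nfkbia, which encodes the inhibitor that holds NF-kB in the cytosol, went from 13293 to 89048 and 92973 (2.75, SE 0.13, adjusted p = 6.28e-05). Nfkbiz and Bcl3, nuclear relatives of that inhibitor, rose by 2.93 and 2.33 log2 units, and Birc3, a survival factor downstream of the TNF receptor, by 1.53. For each of these genes, as for every gene called higher, both poly IC plus ethanol arrays lay above naive. A second, dim probe set of Nfkbiz was not called (1.64, adjusted p = 0.0828).

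The promoters of 3 genes that NF-kB is known to drive are shown because each holds the kappa B core, which is GGG, any 2 bases and TTTCC, in capitals on whichever strand it lies, laid out as above.
Nfkbia, chr12:55492648-55492847, minus strand: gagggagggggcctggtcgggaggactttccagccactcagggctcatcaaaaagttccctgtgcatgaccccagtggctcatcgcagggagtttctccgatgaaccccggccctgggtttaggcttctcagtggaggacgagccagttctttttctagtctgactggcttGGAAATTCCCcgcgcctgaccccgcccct
Tnfaip3, chr10:19015411-19015610, minus strand: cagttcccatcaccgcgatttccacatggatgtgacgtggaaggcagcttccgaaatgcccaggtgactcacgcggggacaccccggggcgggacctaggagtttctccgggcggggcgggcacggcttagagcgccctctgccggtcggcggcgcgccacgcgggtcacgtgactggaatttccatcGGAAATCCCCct
Il6, chr5:30012914-30013113, plus strand: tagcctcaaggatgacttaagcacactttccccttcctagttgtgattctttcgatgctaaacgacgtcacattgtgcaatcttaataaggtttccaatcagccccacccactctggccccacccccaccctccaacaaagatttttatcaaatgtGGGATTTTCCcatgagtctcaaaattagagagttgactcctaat
The match begins 29 bases before the start in Nfkbia, 12 bases before it in Tnfaip3 and 44 bases before it in Il6, and a second start site of Tnfaip3 in the table had no match. Of 15 windows for 11 matched members of the 13 called NF-kB genes, 5 held the kappa B core on either strand (33.3%, beside 1.63% of all windows) and 0 held the ISRE core. Of the 30 windows of the called antiviral genes 0 held the kappa B core. The shares over all windows are 1.63% for the kappa B core and 3.44% for the ISRE core. Both counts of 0 in such small sets are near these shares and do not show that the motifs exclude each other.

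**Figure D2:**
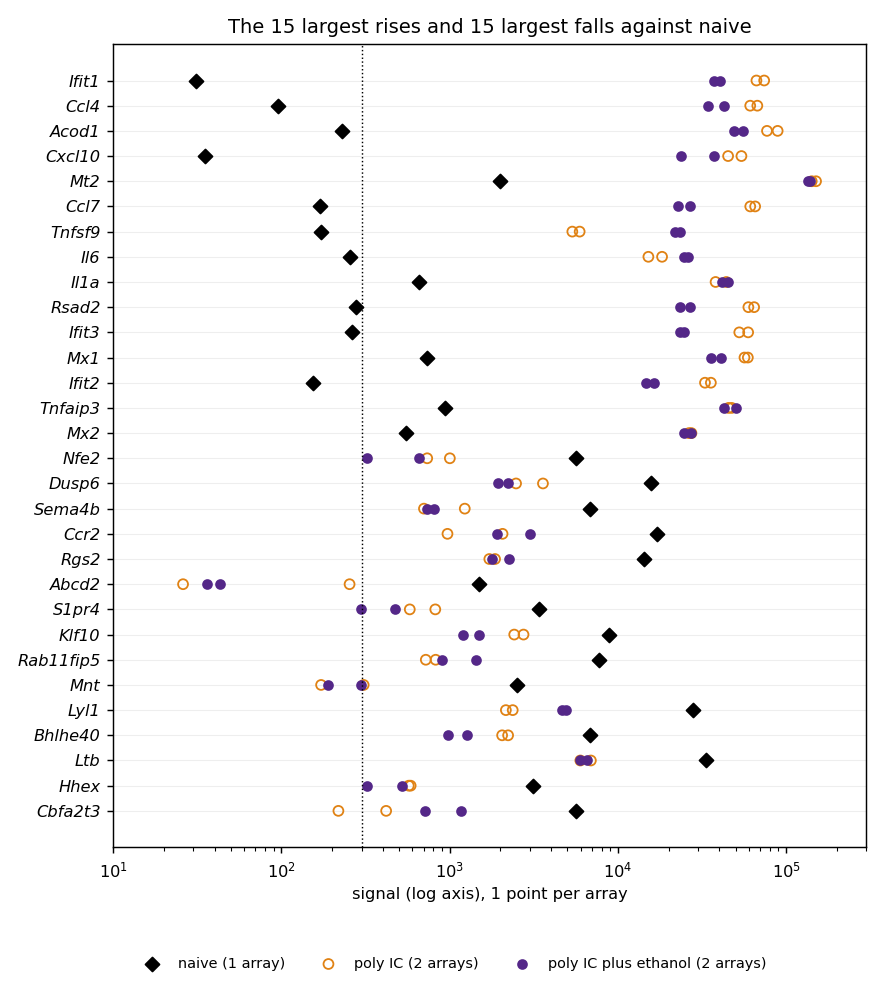
Signal per array (x axis, log scale, 1 point per array) of the 15 genes with the largest called rise and the 15 with the largest called fall from naive. Black diamonds are the naive array, filled purple circles the 2 poly IC plus ethanol arrays and open orange circles the 2 poly IC arrays, and the dotted line marks the brightest unspiked control on the naive array (301.9). In all 30 rows, which were chosen by this difference, both purple points lie on the same side of the naive point. The falls start from naive signals far above the dotted line.

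Enzymes of macrophage activation rose. Of 15 measured itaconate, nitric oxide, arginine and prostaglandin genes, 6 rose and none fell. Acod1, which makes the antimicrobial metabolite itaconate, went from 230 to 55078 and 48857, at least 172-fold higher (6.76, SE 0.15, adjusted p = 5.29e-06). Ptgs2 (cyclooxygenase-2) went from 155 to 4396 and 4384, at least 14.5-fold (3.52, SE 0.19, adjusted p = 0.000112). Ptges, the prostaglandin E synthase that acts after it, went from 1165 to 11673 and 8779, 8.78-fold. Slc7a2, an arginine transporter, rose 13.5-fold. Nos2, the inducible nitric oxide synthase, was 212 in naive macrophages and 528 and 606 after the treatment and was not called (0.82, SE 0.39, adjusted p = 0.318).

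Genes of metal and oxidant defence rose in part. Of 20 measured, 6 rose and none fell, with a median of 0.56 (0.28 without poly IC plus ethanol group 2). Mt2, a metallothionein that binds zinc and copper, went from 1985 to 134545 and 139239, 69.0-fold (5.94, SE 0.13, adjusted p = 5.29e-06). Mt1 went from 7701 to 104897 and 97281, 13.1-fold (3.67, SE 0.15, adjusted p = 3.44e-05). Both pools were close together for both metallothioneins and, as for every gene called higher, above naive. Sod2, the mitochondrial superoxide dismutase, rose 9.98-fold (3.17, SE 0.14, adjusted p = 5.23e-05), and Txnrd1, a thioredoxin reductase, 5.40-fold (2.33, SE 0.13, adjusted p = 0.000164).

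Glucocorticoid-responsive genes moved both ways. Of 24 measured, 8 rose and 3 fell, with a median of 0.27, and 4 to 6 rose without the intensity trend or without 1 treated array (5 without poly IC plus ethanol group 2). The list holds Lcn2 and Nfkbia, which inflammation also raises. Fkbp5, a co-chaperone of the glucocorticoid receptor and a widely used marker of its activity, went from 3377 to 9104 and 9382 (1.39, SE 0.15, adjusted p = 0.00314). Cebpd, a transcription factor of the acute phase, rose from 6758 to 31031 and 30667 (2.15, SE 0.13, adjusted p = 0.000197). Tsc22d3, the gene of the glucocorticoid-induced leucine zipper, was 106 in naive macrophages and 386 and 434 after the treatment and was not called (0.89, SE 0.55, adjusted p = 0.459). Zfp36l2, an RNA-binding protein that shortens messages, fell from 26782 to 9092 and 8165 (-1.61, SE 0.15, adjusted p = 0.00137), while its other 2 probe sets were not called (-0.34 and -0.24).

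Growth-arrest and stress genes rose in part. Of 13 measured p53 and Gadd45 genes 5 rose and 1 fell, and 3 rose without the intensity trend. Gadd45b and Gadd45g, stress sensors that signal to p38 kinase, went from 239 to a mean of 6063 ± 646 and from 1611 to 15389 ± 167 (SD, n = 2). They were at least 20.1-fold (3.69, SE 0.23, adjusted p = 0.000207) and 9.55-fold higher (3.07, SE 0.15, adjusted p = 6.28e-05). Sesn1, a p53 target that limits growth signalling, was the member that fell, from 13403 to 3506 and 3135 (-1.94, SE 0.19, adjusted p = 0.00199). The 1 fall among 20 Bcl2 family, caspase and survival genes was lost in each fit that left out 1 treated array and without the intensity trend. In that list 6 rose, among them Casp4 (inflammatory caspase-11), from 2081 to 14117 and 14933, 6.98-fold (2.66, SE 0.13, adjusted p = 7.18e-05). Cflar, which blocks caspase-8, and the death receptor Fas rose by 2.55 and 1.94 log2 units. Nupr1, a stress-induced chromatin protein, rose from 7154 to 48285 and 47600 (2.70, SE 0.12, adjusted p = 5.55e-05).

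Kinase phosphatases and early response factors were divided. Of 14 dual-specificity phosphatase and MAP kinase genes 7 rose and 2 fell (4 and 1 without the intensity trend). Dusp16, a phosphatase of JNK, rose from 532 to 8775 and 6437, 14.3-fold (3.31, SE 0.22, adjusted p = 0.000259). Its other probe set, at 301 in naive macrophages and 560 and 688 after the treatment, was not called (0.66, adjusted p = 0.435). Dusp6, a phosphatase of ERK, fell from 15734 to 2218 and 1925, 7.6-fold lower (-2.79, SE 0.24, adjusted p = 0.000971). Of 19 AP-1, Egr and Klf factors 4 rose and 5 fell, and these counts went down to 1 and 0 without the intensity trend and to 1 and 2 without poly IC plus ethanol group 2 (1 and 3 without group 1). Atf3, a repressor of Toll-like receptor responses, rose from 6835 to 26532 and 27458 (1.94, SE 0.13, adjusted p = 0.000345), and 1 of its 2 other probe sets was called higher too (1.62), while the other, at 37 in naive macrophages, was not (0.10).

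The largest falls were in genes of varied function. Nfe2, a transcription factor of blood cell lineages, went from 5605 on the naive array to 653 and 321, 11.5-fold lower (-3.03, SE 0.40, adjusted p = 0.0067). Sema4b, a membrane semaphorin, went from 6784 to 802 and 735 (-2.79, SE 0.35, adjusted p = 0.00525), but its other 2 probe sets were not called, at -0.31 and 0.58. Rgs2, which switches off G-protein signals, went from 14235 to 2246 and 1787 (-2.68, SE 0.21, adjusted p = 0.000603). Every treated array was below naive for these genes, which were chosen by the size of their fall. The pools of Nfe2 stood furthest apart among them. Klf10, a repressor induced by TGF-beta, fell by 2.52 on the log2 scale. Its other, dimmer probe set fell further than Nfe2, from 6604 to 327 and 196. That fall was at least 14.9-fold (-3.76, SE 0.32, limma adjusted p = 0.000908). Rab11fip5, an endosome trafficking protein, fell by 2.52, and Bhlhe40, a repressor of the clock machinery, fell by 2.37. Lyl1, a blood lineage factor, fell from 27938 to 4676 and 4914 (-2.48, SE 0.15, adjusted p = 0.00022). S1pr4, a sphingosine phosphate receptor of leukocytes, went from 3394 to 476 and 299, at least 7.65-fold lower (-2.53, SE 0.39, adjusted p = 0.0131).

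**Figure D3:**
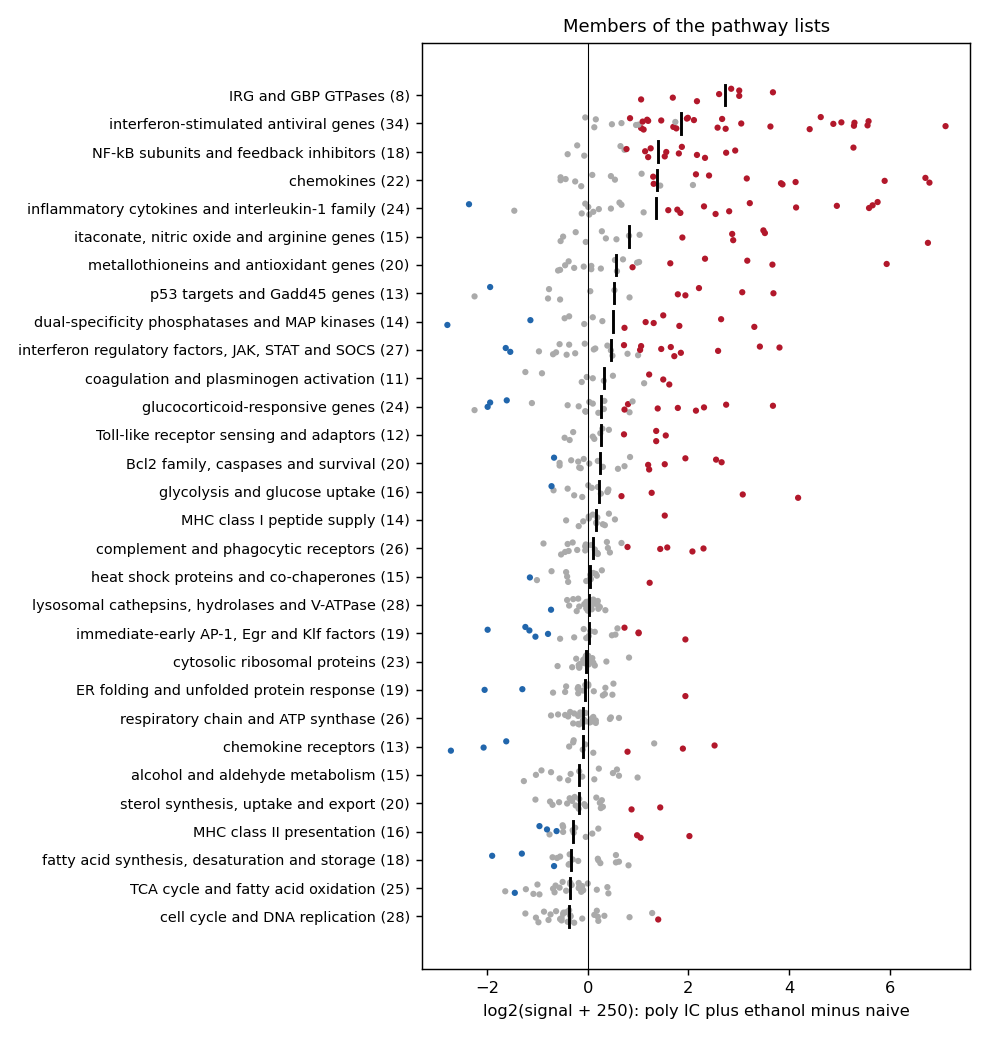
Difference in log2(signal + 250), poly IC plus ethanol mean minus naive, for each measured member of the 30 pathway lists (1 point per gene, the number of members in parentheses). Red points are called higher, blue points called lower and grey points not called, and the black bar is the list's median. The IRG and GBP list and the antiviral list sit highest, with medians of 2.73 and 1.86, and the respiratory chain, alcohol metabolism and ribosomal lists hold no called gene.

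Metabolic genes moved in both directions. Hk2, the hexokinase that traps glucose, rose from 2610 to 26079 and 22047, 9.22-fold (3.08, SE 0.14, adjusted p = 6.27e-05), and Adm (adrenomedullin), a vasodilator peptide placed in the glucose list as a gene that low oxygen raises, from 1266 to 28187 and 26468, 21.6-fold (4.18, SE 0.15, adjusted p = 2.36e-05). Of 16 glycolysis and glucose uptake genes 4 rose and 1 fell, and 2 rose without the intensity trend or without poly IC plus ethanol group 1. The 1 fall was lost without the trend and in each fit that left out 1 treated array. Cpt1a, which brings fatty acids into mitochondria, fell from 18224 to 6361 and 6690 (-1.45, SE 0.14, adjusted p = 0.00196). It was the only 1 of 25 citric acid cycle and fatty acid oxidation genes that was called, while 22 of the 25 differences were below 0 and the median was -0.35. Leaving out either poly IC plus ethanol array brought 2 calls in that list. Plin2, which coats lipid droplets, fell from 21283 to 6379 and 4789 (-1.90, SE 0.21, adjusted p = 0.00296), a call lost without the intensity trend. It was 1 of 3 falls, with no rise, among 18 fatty acid synthesis and storage genes (0 falls without the trend, and 1 without poly IC group 1, poly IC group 2 or poly IC plus ethanol group 2). Of 20 sterol genes 2 rose and none fell, and the rises went down to 0 without the trend or without poly IC plus ethanol group 1, and to 1 without any other treated array.

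None of 15 alcohol and aldehyde metabolism genes was called by limma, 6 had an unadjusted p under 0.05, and the median was -0.17. When dim probe sets were left out before the fit 3 were called lower, and 1 was called lower in each of 4 other fits. Aldh2, the mitochondrial enzyme that clears acetaldehyde, was 26155 in naive macrophages and 22157 and 19198 after the treatment (-0.34, SE 0.15, adjusted p = 0.275). Cyp2e1, the ethanol-inducible cytochrome, named after its values were seen, was 1038 in naive macrophages and 1133 and 1367 after the treatment (0.22, adjusted p = 0.785). None of 26 respiratory chain genes and none of 23 cytosolic ribosomal protein genes was called by limma, with medians of -0.10 and -0.03 and with 4 and 1 at an unadjusted p under 0.05.

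Of 15 measured heat shock genes 1 rose and 1 fell, and the median was 0.05 (-0.11 after quantile normalization). The rise was lost in 3 of the 4 fits that left out 1 treated array, those without poly IC group 1, poly IC group 2 or poly IC plus ethanol group 1. Hspa1b, an inducible Hsp70 gene, was 2993 in naive macrophages and 2127 and 2265 after poly IC plus ethanol, a difference that was not called (-0.41, SE 0.16, adjusted p = 0.241). The poly IC arrays stood at 10748 and 9699, above every other array, and poly IC plus ethanol was lower than these (-2.10, adjusted p = 0.00584). That call, like every call against poly IC, was lost without either poly IC plus ethanol array. Hspa1a, its twin gene, was 5799 in naive macrophages, 2350 and 2613 on the poly IC plus ethanol arrays and 10230 and 7419 on the poly IC arrays. Its fall from naive (-1.15, adjusted p = 0.0295) was lost without poly IC plus ethanol group 1 (-1.08, adjusted p = 0.0878) or group 2 (-1.22, adjusted p = 0.0822). The 2 genes are nearly identical in sequence, so their probe sets may share signal.

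Of 19 measured resident macrophage markers 3 rose, 2 fell and the median was -0.04. Cd14, a co-receptor for endotoxin, rose from 47180 to 120787 and 122303 (1.36, SE 0.16, adjusted p = 0.00356), and Fcgr1, the high-affinity IgG receptor, from 3323 to 12016 and 9109 (1.58, SE 0.21, adjusted p = 0.00743). Tgfb2 (transforming growth factor beta 2) fell from 7853 to 2128 and 1714 (-1.91, SE 0.23, adjusted p = 0.00451). Gata6 fell from 7218 to 1851 and 2188 (-1.72, SE 0.24, adjusted p = 0.00905), but its 2 other probe sets were not called, at -0.65 and 0.04. The rises of Cd14 and Fcgr1 and the fall of Gata6 were lost without the intensity trend, where 0 rose and 1 fell. Alox15, Cd68, Itgam and Csf1r, abundant in these cells, lay between -0.20 and -0.03.

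Markers of some other cells moved too. Of 24 T and NK cell markers 1 rose and 1 fell, of 11 dendritic cell markers 2 rose and 1 fell, and of 9 monocyte markers 1 rose and 2 fell. Their medians were -0.06, 0.01 and 0.00. None of 5 eosinophil, 15 mesothelial and fibroblast and 5 platelet markers was called by limma, with 0, 1 and 1 at an unadjusted p under 0.05. Of 21 B cell markers 6 fell and none rose, beside 2.79% of all genes lower, 20 of the 21 differences were below 0 and the median was -0.48 (-0.49 with arrays centred on their medians). The count of falls was 2 without poly IC plus ethanol group 1 and 2 without the intensity trend. Cd79b, a chain of the B cell receptor complex, was 62100 in naive macrophages and 14953 and 17032 after the treatment (-1.94, SE 0.19, adjusted p = 0.00175). Cd79a, the other chain, was 40262 in naive macrophages and 25964 and 32052 after the treatment and was not called (-0.48, adjusted p = 0.2). The difference between the chains was not tested. Spib and Pax5, B lineage factors, fell by 1.58 and 1.47 on the log2 scale, and both calls were lost without poly IC plus ethanol group 1 (-1.47, adjusted p = 0.0553, and -1.31, adjusted p = 0.0556) and without the intensity trend. A second probe set of each was not called (-1.10 and 0.58). The summed signal of the 21 markers was 490929 in naive macrophages and 300271 and 317849 after poly IC plus ethanol, with 245412 and 230620 on the poly IC arrays. Ltb is a member of this list as well as of the cytokine list. The part of B cells in the falls of Ccr7, Irf4 and Lyl1, which they also express, was not tested.

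Of 18 neutrophil markers 5 rose and 1 fell, with a median of 0.62, and their summed signal was 51783 in naive macrophages, 92346 and 78760 on the poly IC plus ethanol arrays and 188038 and 150009 on the poly IC arrays. The 1 fall was lost without poly IC group 1, poly IC group 2 or poly IC plus ethanol group 2. S100a8 and S100a9, the subunits of calprotectin, went from 564 and 295 to means of 10425 ± 305 and 5511 ± 234 (SD, n = 2). They were 18.5-fold (3.71, SE 0.21, adjusted p = 0.000144) and at least 18.3-fold higher (3.40, SE 0.25, adjusted p = 0.000435). Lcn2 (lipocalin 2), which withholds iron from bacteria, rose at least 21.9-fold (3.68, SE 0.24, adjusted p = 0.000268), although its other probe set was not called (0.48). Fpr2, a receptor for bacterial and inflammatory peptides, rose from 1769 to 22150 and 18312 (3.34, SE 0.15, adjusted p = 5.77e-05). Mpo and Ngp, granule genes of neutrophils, were dim in both groups, and neither was called. Mpo was 161 in naive macrophages and 58 and 173 after the treatment, and Ngp 82 with 132 and 268. Ly6g, a surface antigen of neutrophils, was 87 in naive macrophages and 487 and 582 after the treatment, above the brightest control there (443.8), and was not called (1.22, SE 0.46, adjusted p = 0.211). Hba-a1 (alpha globin), a red cell marker, went from 668 to 14985 and 7794 (3.59, SE 0.44, adjusted p = 0.00478), a call lost without the intensity trend, and 2 of 7 erythroid markers rose (1 without poly IC plus ethanol group 1 and 1 without group 2). The part of these cells in the other rises was not tested.

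**Figure D4:**
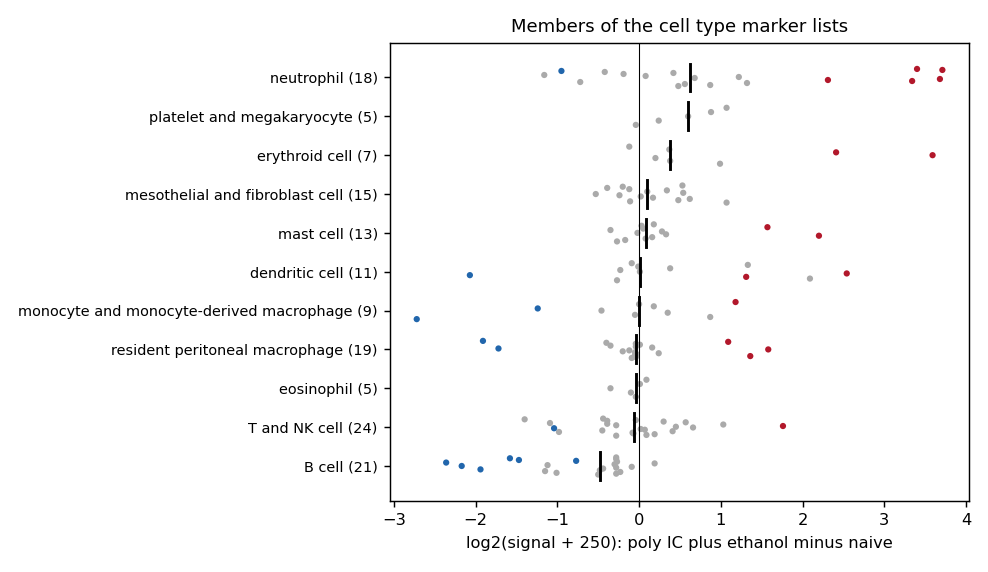
Difference in log2(signal + 250), poly IC plus ethanol mean minus naive, for each measured marker of 11 cell types (1 point per gene, the number of markers in parentheses). Red points are called higher, blue points called lower and grey points not called, and the black bar is the list's median. The B cell markers lie almost wholly to the left of 0, and 5 of the 18 neutrophil markers are called higher and 1 lower.

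The values of the poly IC arrays show where the combined treatment differed from poly IC alone. Poly IC plus ethanol differed from poly IC in 273 of 12422 probe sets (2.2%), 137 higher (1.1%) and 136 lower (1.09%), and in 235 genes (2.85%), 118 higher (1.43%) and 117 lower (1.42%). With limma 0 calls were made without poly IC plus ethanol group 1, without group 2 or without the intensity trend, and the fit made 30 without poly IC group 1 and 1 without poly IC group 2. In each of these 5 fits all 273 kept their sign and an unadjusted p under 0.05, and probe sets at that unadjusted p numbered 1351 to 2304. The 273 were called in a fit of these same arrays, so their kept sign and unadjusted p are not independent support. The contrast against poly IC shares the poly IC plus ethanol arrays with the contrast against naive, so the 2 are not independent.

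Of the 10 genes furthest above poly IC among those called against naive, 7 had risen from naive and 3 had fallen. Tnfsf9 stood at 23286 and 21926 against 5921 and 5356 on the poly IC arrays (1.96, adjusted p = 0.00584), and Adm at 28187 and 26468 against 8126 and 7035 (1.82, adjusted p = 0.00584). Fkbp5 stood at 9104 and 9382 against 2479 and 2436 (1.81, adjusted p = 0.00584), and its naive signal of 3377 lay above both poly IC arrays. For these 3 genes, which were chosen by this difference, the 2 treated groups did not overlap. Nupr1 stood at 48285 and 47600 against 17548 and 16449 (1.48, adjusted p = 0.00584). Phlda1, an early response gene tied to cell death, stood at 4176 and 3453 against 973 and 1036 (1.69, adjusted p = 0.0209). Slc10a6, a carrier of sulfated steroids, stood at 13898 and 10662 against 4325 and 3732 (1.54, adjusted p = 0.0131). Cd79b, Sesn1 and Tspan32 were also above poly IC, by 1.80, 1.56 and 1.57, but had fallen from naive. The fall of Tspan32, a tetraspanin of blood cells, from 9857 to 4029 and 4259 (-1.20, adjusted p = 0.0136), was lost without poly IC plus ethanol group 1 (-1.16, adjusted p = 0.0519) and without the intensity trend.

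Of the 10 genes furthest below poly IC among those called against naive, 9 were induced from naive but to a lower signal than on the poly IC arrays. S100a8 stood at 10640 and 10209 against 56818 and 40341 (-2.17, adjusted p = 0.00727), and S100a9 at 5676 and 5346 against 31307 and 20508 (-2.15, adjusted p = 0.00921). Il1rn stood at 23939 and 20300 against 75346 and 82394 (-1.83, adjusted p = 0.00584). Ch25h, which makes 25-hydroxycholesterol, was 224 in naive macrophages, 1055 and 1026 on the poly IC plus ethanol arrays and 7542 and 11600 on the poly IC arrays (-2.90, adjusted p = 0.00739). Its rise from naive (1.44, adjusted p = 0.037) was lost in each fit that left out 1 treated array (adjusted p 0.0654 to 0.112). Mxd1, a partner of Max that opposes Myc, stood at 1821 and 1813 against 8139 and 6533 (-1.87, adjusted p = 0.0101). Cxcl9 stood at 1168 and 926 against 5715 and 5190 (-2.14, adjusted p = 0.0113), and Cmpk2 at 14213 and 11353 against 41684 and 49590 (-1.82, adjusted p = 0.00739).

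The lists were also set against poly IC, with the same fits left without calls as above. Of 34 antiviral genes 20 were called below poly IC and none above, with a median of -0.73, beside 1.42% of all genes lower. Mx2 was not among them, at 24808 and 27280 against 27342 and 26435 (-0.05, adjusted p = 0.899). Of 8 IRG and GBP genes 4 were called below, with a median of -0.58. Of 18 NF-kB genes none was called by limma and 2 had an unadjusted p under 0.05, with a median of -0.18, although 13 of these had risen from naive, and Tnfaip3 stood at 49976 and 42527 against 45452 and 47450 (-0.01, adjusted p = 0.985). Of 24 cytokine and interleukin-1 family genes 4 were called below and 1 above, with a median of -0.23. Of 22 chemokines 3 were called below and none above, with a median of -0.36. Of 15 itaconate, nitric oxide, arginine and prostaglandin genes 3 were called below and none above, with a median of -0.14. Of 15 heat shock genes 5 were called below, with a median of -0.51. Of 20 metallothionein and antioxidant genes none was called by limma and 5 had an unadjusted p under 0.05, and Mt2 differed by -0.09 (adjusted p = 0.753). Of 24 glucocorticoid-responsive genes 3 were called above and 1 below, with a median of -0.08. Cebpd was the 1 below (-0.86, adjusted p = 0.0186), and Tsc22d3 differed by 0.06 (adjusted p = 0.974). Of 18 neutrophil markers 3 were below, and of 21 B cell markers 4 were above.

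**Figure D5:**
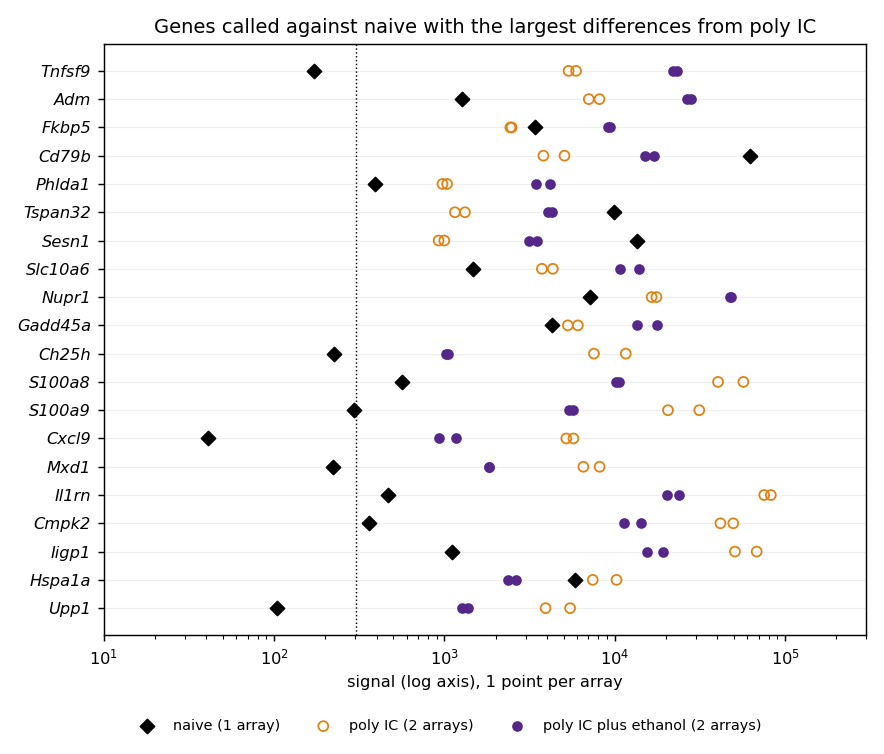
Signal per array (x axis, log scale, 1 point per array) of the 10 genes furthest above and the 10 furthest below poly IC among genes called against naive. Black diamonds are the naive array, filled purple circles the 2 poly IC plus ethanol arrays and open orange circles the 2 poly IC arrays, and the dotted line marks the brightest unspiked control on the naive array (301.9). Purple and orange points do not overlap in any of the 20 rows, which were chosen by this difference. For Cd79b, Tspan32 and Sesn1 the purple points lie between naive and poly IC.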

How the data were processed

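Total RNA of peritoneal macrophages was hybridised to 5 arrays, and each deposited value is a signal intensity per probe set, computed by the authors with Affymetrix Microarray Suite 5.0, scaled to a target of 2500 and handled in Data Mining Tool 3.0, per the labels' protocols. Genome build was not given in the sources, and detection calls were not used. MAS signals below about the brightest unspiked control carry little information, so 250 was added before log2.

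With limma 3.58.1 in R 4.3.3, 3 group means were fitted over all 5 arrays and all 12422 probe sets that are not controls, with an intensity trend and Benjamini-Hochberg adjustment (called at an adjusted p under 0.05). The spread rests on 2 residual and 4.69 prior degrees of freedom, and the lone naive array is assumed to vary like the others. The differences between groups 1 and 2 were nearly uncorrelated across probe sets between the 2 treatments (correlation 0.0218). This correlation cannot show whether the group numbers pair the treated arrays. Symbols came from the platform annotation: 10833 probe sets had 1 symbol, 396 several and 1193 none. 10817 of the first matched a RefSeq gene. In simulated data with 12422 probe sets, the contrast with naive recovered 25% of log2 shifts of 1 and 81% of shifts of 2. It also called 8 probe sets that were not shifted. The simulated noise took the fitted variances for every array, so it cannot show how the real naive array varies.

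Genes were named by rule: the 15 largest called rises and falls, in each list the 4 members with the strongest statistic, the 10 furthest above and below poly IC, and a fixed set. Other genes (Ifitm1, Ifitm2, Ifitm3, Irf4, Cd79a, Cyp2e1) were named after their values were seen, and defining cell markers for the check of the label. Members, 30 pathway lists and 11 cell type lists were chosen with earlier results of these data known. The 13 alternatives changed offset, filter, normalization, variance model, probe sets or arrays. Promoters came from RefSeq on GRCm38.p6, without those of chr18.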

Additional observations from a re-analysis of the deposited data

How the results depend on the processing

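No called probe set changed sign against naive under any of the 13 alternatives run. For every call both poly IC plus ethanol arrays lay on the same side of naive. Only the alternatives that changed the normalization could therefore have changed a sign. Against naive, 259 probe sets were called without the intensity trend (198 higher, 61 lower), 1118 when probe sets under the 40th percentile of mean signal were left out (538 lower), and 481 to 523 with 1 treated array left out (345 to 351 higher, 130 to 174 lower). Against poly IC the counts were 0 without the trend (1829 at an unadjusted p under 0.05), 604 with that filter, 131 with arrays centred on their medians and 0 to 30 with 1 treated array left out (1351 to 2304 at an unadjusted p under 0.05). The replicate block on group number gave 720 calls against naive and 190 against poly IC, and the labels do not say that these numbers pair the arrays. Of 138 named genes called against naive, 45 lost the call without the trend, 18 to 26 with 1 treated array left out, 17 with arrays centred on their medians, 17 in the fit of the naive and poly IC plus ethanol arrays only, 8 with an offset of 500, 6 after quantile normalization, 3 under the block and 1 with an offset of 100. The cause of these losses was not tested, apart from fewer arrays in the fits that leave some out. A single naive array gives no spread of its own, and 46 of the called rises start at or under the brightest unspiked control, where only a bound on the fold can be given.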

Other observations

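Several further gene groups were measured, with counts to be read against 4.31% of all genes higher and 2.79% lower. Of 16 genes on the class II presentation list 3 rose and 3 fell, 11 differences were below 0 and the median was -0.29. The 3 rises were Cd80, Cd86 and Cd40. H2-DMb2 was 1 of the 3 falls, from 21242 to 11795 and 12204 (-0.81, SE 0.14, limma adjusted p = 0.0179). Cd80, a ligand of CD28 on T cells, went from 1396 on the naive array to 8018 and 5166 (2.02, SE 0.27, limma adjusted p = 0.00698), and Cd86 and Cd40, which also act in T cell help, rose by 0.98 and 1.05. A second probe set of Cd86 was not called, at 1299 on the naive array and 1477 and 895 after the treatment (-0.14, limma adjusted p = 0.879). The 3 rises were lost without the intensity trend, and the 3 falls without either poly IC plus ethanol array. Cd83, a marker of mature dendritic cells that activated macrophages also express, rose from 3623 to 21286 and 23309 (2.54, SE 0.13, limma adjusted p = 0.000101). Of 26 complement and phagocytic receptor genes 5 rose and none fell (2 rose without the trend). C5ar1, the receptor for the complement fragment C5a, went from 5365 to 24376 and 22645 (2.08, SE 0.15, limma adjusted p = 0.000432), and Clec4e, the gene of the fungal and mycobacterial sensor Mincle, from 905 to 5429 and 5475 (2.30, SE 0.16, limma adjusted p = 0.000304). Of 12 Toll-like receptor genes 4 rose (0 without the trend, and 2 without poly IC group 1, poly IC group 2 or poly IC plus ethanol group 2), among them the adaptor Myd88, from 3541 to 8999 and 12987.

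F10, the gene of coagulation factor X, rose from 8930 to 29816 and 26079 (1.62, SE 0.14, limma adjusted p = 0.000908), 1 of 3 rises among 11 coagulation genes (1 rise without the trend, and 2 in each fit that left out 1 treated array). Hdc, which makes histamine and is listed with mast cells, rose from 2416 to 12709 and 11266 (2.20, SE 0.15, limma adjusted p = 0.000278), as 1 of 2 rises among 13 mast cell markers. Of 28 cell cycle genes 1 rose and none fell, with a median of -0.38, and of 28 lysosomal genes 1 fell and none rose, with a median of 0.02. That fall was lost without the trend and without poly IC group 1, poly IC group 2 or poly IC plus ethanol group 2.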
